A study of Mus musculus with 162 samples.

Results

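The stomach libraries were the 17 used of 18 labelled STM, in a series of mRNA-seq libraries of 9 organs from each of 18 mice. They were chosen by their organ label, with the 12 h replicate 3 left out, and set against libraries of the other 8 organs, 18 from the olfactory bulb (OB), 16 from the brain (BRN), 18 from the cerebellum (CBL), 18 from the brainstem (BST), 18 from the liver (LIV), 17 from interscapular brown fat (iBAT), 18 from perigonadal white fat (pgWAT) and 16 from subcutaneous white fat (psWAT). The rule left out 6 libraries in all.

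The study sequenced mRNA of organs from C57BL/6J male mice aged 8 to 9 weeks after short fasts. The mice had either free access to food (0 h) or no food for 2, 8, 12, 18 or 22 h, with 3 mice at each time, and were killed at the same clock time early in the dark phase. All were wild type and no drug was given. Each mouse gave all 9 organs, and each fasting time had 3 stomach libraries except 12 h, which had 2. The white fats were extracted with a different lysis reagent from the other organs, so a difference between the stomach and pgWAT or psWAT cannot be told apart from the extraction.

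The mouse stomach joins 2 linings that do different work. The glandular part is pitted with glands in which surface mucous cells make a protective gel, neck cells make a second mucin, parietal cells pump acid, chief cells store digestive enzymes and endocrine cells release hormones such as ghrelin and gastrin. The forestomach, which mice have and humans lack, is lined by a stratified squamous epithelium that keratinizes as skin does, and both parts sit on a wall of smooth muscle with its own neurons.

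Total counts of the 17 stomach libraries ran from 6851903 to 13769280 with a median of 8735554, and those of the other organs from 3045845 to 27801717 with a median of 8762848. The 10 most counted genes took 24.96% to 43.04% of a stomach library, median 31.8%. Levels are normalized CPM, counts relative to a library's total after scaling by its trimmed mean of M values (TMM) factor. A count of 3 corresponded to 0.505 normalized CPM in the shallowest stomach library and 0.249 in the deepest, and this floor covers counting error only.

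The label was checked against Atp4b, the beta subunit of the acid pump of parietal cells, and Muc5ac, the gel-forming mucin of surface mucous cells. Atp4b (GRCm38, chr8:13386205-13396825, minus strand) lay between 598.9 (22 h replicate 3) and 4586 (8 h replicate 2) normalized CPM in the stomach, median 2689, and at most at 4.34 in any other library. Muc5ac (chr7:141788972-141819231, plus strand) lay between 529.9 and 5470, median 3668, against at most 20.5 elsewhere. Every stomach library was above every other library for both genes, so no stomach library went against its label. The mean of Atp4b, 2423 ± 1050 (SD, n = 17), was 1363 times that of iBAT, the next highest organ (log2 fold change 10.36, SE 0.331, edgeR quasi-likelihood test, Benjamini-Hochberg adjusted p = 1.54e-57). For Muc5ac the mean was 2985 ± 1566, 2471 times that of iBAT (log2 fold change 11.00, SE 0.535, adjusted p = 1.04e-41). The iBAT mean of Muc5ac was low, and a single library at up to 20.5 can set most of such a mean. Over the alternative fits the log2 fold change over the highest organ ran from 9.72 to 10.73 for Atp4b and from 10.35 to 15.92 for Muc5ac. Here and below, each SE was calculated back from the log2 fold change and the test statistic, and was not fitted.

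Some stomach libraries stood apart from the rest. Those of 0 h replicate 3 and 0 h replicate 1 held transcripts of pancreatic enzymes, with Ctrb1, a chymotrypsinogen, at 147.2 and 72.9 normalized CPM against a median of 0.726 over the 17. Albumin (Alb), made by the liver, was at 876.7 in 12 h replicate 2 and at 445.3 in 0 h replicate 3, against a median of 6.19. Markers of the intestine were highest in 2 h replicate 1, with Alpi, an alkaline phosphatase of the intestinal brush border, at 110.7 against a median of 4.50. The 8 h replicate 2 held the most Ighm, the heavy chain of IgM, at 243.8 against a median of 10.3. Outside the stomach, psWAT 8 h replicate 1 lay nearer to the pgWAT mean than to the mean of the other psWAT libraries. Its root mean square difference in log2 level was 0.740 against 0.912.

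A pair of stomach libraries, 18 h replicates 1 and 3, lay closer together than any other pair by mean squared difference scaled to counting error, at 4.70 over 15373 genes, against 13.1 for the next pair and a median of 62.8. By the median difference in place of the mean, the pair was at 2.08, above the 1.76 of 2 h replicates 2 and 3. They were kept as separate libraries. The total counts or shares of STM-high genes, STM-low genes and genes called over fasting times are given also with the pair summed into 1 library.

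Genes were called STM-high when log2 fold change was over 1 and adjusted p under 0.05 in the stomach against each of the 8 other organs, and STM-low when the fold was under -1 with the same p against each. Of 22112 genes tested, 1134 were STM-high (5.13%), and 0.733% were STM-low. These shares, and the median log2 fold change over the highest organ of -1.67, are the background for the gene lists below. Against the equally weighted mean of the 8 organs, 4563 genes were higher in the stomach (20.6%) and 3316 were lower (15.0%). Without the 3 libraries named above for Ctrb1 or Alb (0 h replicates 1 and 3 and 12 h replicate 2), 1137 genes were STM-high and 0.710% STM-low. With the 18 h pair summed these were 1131 and 0.743%. Without psWAT 8 h replicate 1 they were 1132 and 0.710%.

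The STM-high genes took 28.3% to 46.5% of the counts of a stomach library, median 38.6%, and 0.355% to 5.88% elsewhere, median 0.624%. In 463 of the 1134 every stomach library was above every other library, and 469 of all genes tested had this order. The fold over the highest mean or floor among the other organs had a median of 4.47, and was above 10 for 326 genes, above 100 for 81 and above 1000 for 19. Of the 1111 STM-high genes with an annotated type 988 were protein coding. The organ that came next was most often pgWAT, for 295 genes, then LIV for 195 and psWAT for 185, and least often CBL, for 45. For the 442 genes at the floor this choice rests on means at or under the floor, so the order of organs says little for them.

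Across all genes tested the stomach profile was most like that of pgWAT, with a Spearman correlation of 0.821 over 22112 genes that share the same libraries and scaling, then iBAT at 0.807 and psWAT at 0.788. The 4 brain regions lay lowest, between 0.698 and 0.702. Genes are not independent replicates, so these values are a description. Because whole organs were sequenced, fewer cells of a type and less RNA in each cell cannot be told apart for any gene described here.

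**Figure D1:**
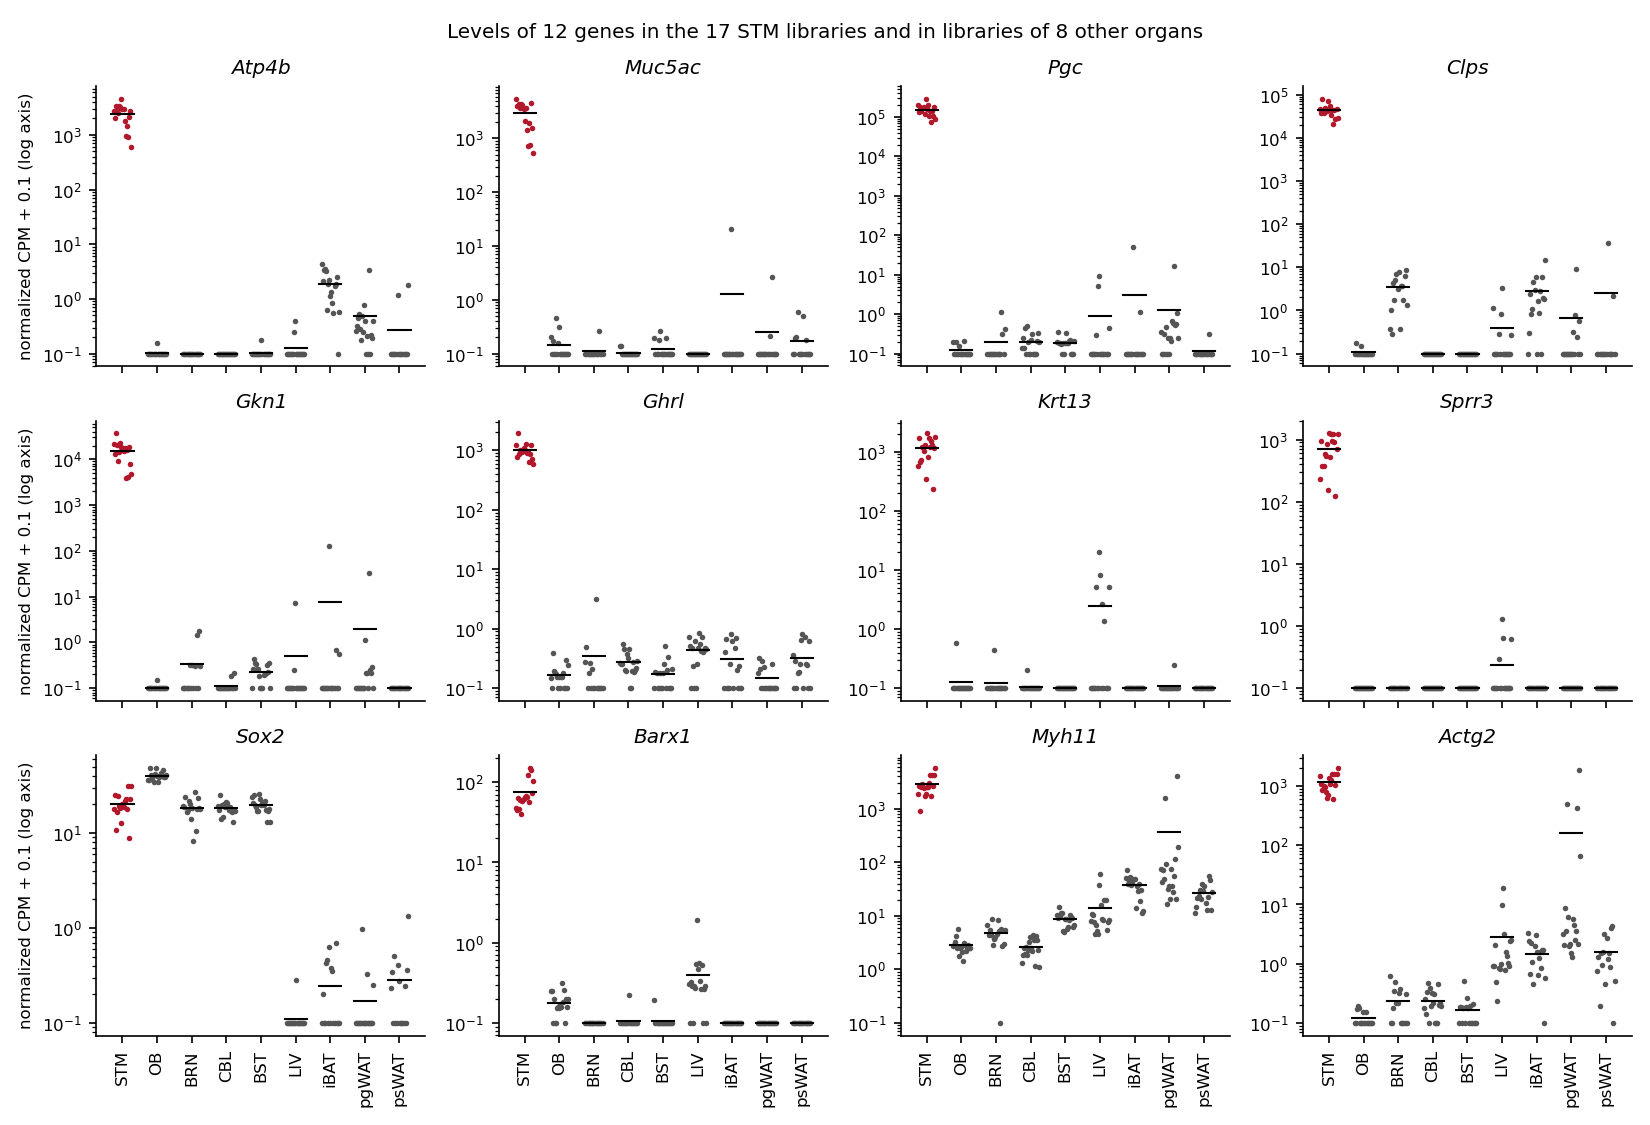
Normalized CPM on a log axis of selected stomach genes in each library used, grouped by organ, with a small constant added so that 0 can be drawn. Each point is a library and each line an organ mean. For Atp4b the 17 stomach libraries lie between 598.9 and 4586, and no other library exceeds 4.34.

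Pgc, which encodes pepsinogen C, the precursor of a stomach protease, took 7.04% to 21.1% of all counts in a stomach library, median 13.4%, and at most 0.00342% in any other. Mitochondrial transcripts together took 2.83% to 24.4%, median 9.57%. The Pgc level ran from 76262 to 290000 normalized CPM, median 142971, with the 8 h replicate 2 highest. The mean was 52377 times that of iBAT (log2 fold change 15.54, SE 0.851, adjusted p = 9.11e-39). That iBAT mean was low, and a single library can set most of such a mean. Over the alternative fits the log2 fold change over the highest organ ran from 15.25 to 20.12. Every stomach library was above every other library.

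Of the 9 chief cell genes tested 8 were STM-high, and the exception was Ctsl, a lysosomal protease made in most tissues, at 146.5 on average against a higher level in pgWAT. Chia1, an acidic chitinase that digests chitin of food, ran from 4367 to 51779 normalized CPM, median 19575, and averaged 4979 times the BRN mean. Gif, the intrinsic factor that carries vitamin B12, ran from 178.8 to 4312, median 2126. Bhlha15, the transcription factor that shapes secretory cells, ran from 7.61 to 157.4, median 46.6. Those 3 spans were wide, and only Bhlha15 among them overlapped other organs, where LIV 0 h replicate 3 reached 9.43. The log2 fold change over the highest organ had a median of 6.05 over the list (5.99 with levels of 3 counts or fewer set to the floor), against -1.67 (-1.70) over all genes tested. Lipf, a gastric lipase, had 0 counts in all 17 stomach libraries.

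Per kilobase of exon, which allows genes to be compared, Pgc was the most abundant transcript of the stomach at 110951 normalized CPM per kb. Colipase (Clps), the cofactor of pancreatic lipase, came next at 72800 and Pla2g1b, a secreted phospholipase named for the pancreas, at 33381. The mitochondrial transcripts mt-Co1 and mt-Cytb followed at 30546 and 21584, ahead of Tff1 at 19315, Gkn2 at 15307, mt-Nd1 at 14557 and Gkn1 at 12295. Gm23935, a gene of 57 bases annotated as a miRNA, stood among them at 21320, and a poly-A library measures such a gene poorly. Together Pgc, Clps and Pla2g1b took 9.70% to 29.4% of a stomach library, median 19.7%, and at most 0.00545% of any other.

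Both Clps and Pla2g1b are textbook products of the exocrine pancreas, so they were read beside the other pancreatic genes. Clps ran from 20759 to 80793 normalized CPM in the stomach, median 45320, and Pla2g1b from 8063 to 43301, median 22601. Elsewhere Clps reached 36.8 and Pla2g1b 3.64. Every stomach library was high for both, with no overlap (log2 fold change 13.64, SE 0.903, adjusted p = 2.33e-28 for Clps, and 16.53, SE 0.540, adjusted p = 6.15e-65 for Pla2g1b).

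Defining enzymes of pancreatic acini had medians near 0 but were high in single libraries. Over the 17, Pnlip, the pancreatic lipase, had a median of 0.400 normalized CPM and reached 79.05, Ctrb1 had 0.726 and reached 147.2, and Cpa1, a carboxypeptidase, had 0.224 and reached 38.3. Prss2, a trypsinogen, had a median of 0. Reg2 had no count in any stomach library. Without Clps and Pla2g1b the pancreatic list summed to 167.1 (22 h replicate 3) to 1624 (0 h replicate 3), median 633.2. Of the 26 genes tested of the whole list 16 were STM-high (13 by DESeq2, and 12 without the 0 h libraries), with a median log2 fold change of 2.04 (1.66 with the floor). Its further members included Cela1, an elastase, at 9.70 to 377.0 and median 54.01, overlapping psWAT at up to 71.8. They also included the lipases Pnliprp2, at 60.4 to 530.9 and median 256.8, and Pnliprp1, at 16.1 to 138.6 and median 76.4. Pnliprp2 did not overlap other organs, while Pnliprp1 overlapped psWAT 12 h replicate 1, at 18.6.

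The surface mucous and neck cell list was STM-high in all of its 20 genes, with a median log2 fold change of 9.67 (8.45 with the floor) against -1.67 (-1.70) over all genes. Gkn1 and Gkn2, gastrokines secreted with the mucus, ran from 3808 to 36823, median 16140, and from 1730 to 35069, median 11638. Tff1, a trefoil peptide of the mucous gel, ran from 3988 to 34269, median 13337, and Psca, a surface antigen, from 3222 to 12015, median 6802. For these 4 genes every stomach library exceeded every other library. Their highest level outside the stomach was in iBAT 8 h replicate 2, at 126.6, 125.2, 79.2 and 9.12.

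Muc6, the second gel-forming mucin of the stomach, ran from 300.2 to 2322 normalized CPM, median 1019. Tff2, the trefoil peptide packed with it, ran from 740.7 to 7128, median 2138. Muc1, a membrane mucin, ran from 159.7 to 522.5, median 359.7, and Dpcr1, a mucin-like protein, from 1600 to 7511, median 4717. All 4 had every stomach library above every other library. The summed level of the list moved widely among the 17, from 18234 in 18 h replicate 1 to 140212 in 0 h replicate 3, median 63155.

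Enzymes that build mucin sugar chains were part of the difference. Of the 26 O-glycosylation genes tested 12 were STM-high and St3gal4, a sialyltransferase, was STM-low, with a median log2 fold change of 0.62 against -1.67 over all genes. Gcnt3, which branches the sugar core, ran from 93.8 to 465.2, median 344.9, against at most 3.72 elsewhere (log2 fold change 9.79, SE 0.312, adjusted p = 1.03e-61). A4gnt, which adds the terminal sugar typical of gland mucin, ran from 12.0 to 187.9, median 94.3, and Fut2, a fucosyltransferase, from 65.6 to 145.5, median 133.6. Neither overlapped other organs, which reached 1.24 and 4.90. St6galnac1, which adds sialic acid to mucins, had no count in the stomach.

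Of the 22 parietal cell and acid secretion genes 13 were STM-high, against 5.13% of all genes, with a median log2 fold change of 1.64 against -1.67. Atp4a, the catalytic subunit of the acid pump, ran from 1193 (22 h replicate 3) to 8989 (8 h replicate 2), median 5064, against at most 38.3 elsewhere, and averaged 1840 times pgWAT (log2 fold change 10.95, SE 0.516, adjusted p = 2.68e-45). The pump needs potassium outside the cell, returned by channels. Kcnq1 and its partner Kcne2 ran from 26.9 to 199.5, median 131.8, and from 12.2 to 186.8, median 80.3, and Kcnj15 from 54.2 to 477.6, median 242.5. Kcnq1 and Kcnj15 did not overlap other organs, while CBL 0 h replicate 2 reached 30.4 for Kcne2.

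Chloride and bicarbonate carriers of the same cells also stood out. Slc26a9, a chloride transporter, ran from 71.4 to 369.2, median 180.0, against at most 0.443 elsewhere (log2 fold change 11.60, SE 0.273, adjusted p = 9.60e-78). Such levels elsewhere lie under the floor of 0.505 of the shallowest stomach library, so this fitted fold is not exact. Slc4a2, the exchanger that exports bicarbonate on the blood side, ran from 208.8 to 699.8, median 424.3, and Clic6, a chloride channel-like protein, from 156.6 to 1094, median 709.2. Car2, the carbonic anhydrase that supplies protons, ran from 303.9 to 1702, median 1278, and overlapped BST, where it reached 458.0. All 4 were STM-high.

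Receptors that turn acid secretion on or off were not STM-high. The histamine receptor Hrh2 ran from 14.1 to 51.8, median 31.2, and overlapped OB, where it reached 28.8. The muscarinic receptor Chrm3 had a median of 13.6, the gastrin receptor Cckbr 5.60, the somatostatin receptor Sstr2 10.7 and the prostaglandin receptor Ptger3 9.74. Each of those 4 was as high or higher in at least 1 brain or fat library. Casr, a calcium sensor, had a median of 0.151, under the floor.

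Ghrl, which encodes ghrelin, ran from 589.4 to 1932 normalized CPM, median 951.3, against at most 3.06 elsewhere (log2 fold change 11.50, SE 0.291, adjusted p = 4.45e-79). Sst, which encodes somatostatin and is also made by neurons, ran from 114.1 to 552.5, median 273.4, overlapped BRN at up to 258.6 and was not STM-high (log2 fold change 0.86, SE 0.226, adjusted p = 0.000339). Hdc, which makes histamine, ran from 14.0 to 71.8, median 43.2, and was STM-high. Mboat4, which attaches the fatty acid that ghrelin needs, ran from 0.447 to 4.97, median 2.13, and was STM-high at a level near the floor.

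Gast, which encodes gastrin, the hormone of antral G cells, varied more than the others. In normalized CPM it was 182.2, 195.5 and 449.5 at 0 h, and 297.3, 276.4 and 178.3 at 2 h. At 8 h it was 273.0, 2.58 and 33.4, at 12 h 13.1 and 5.87, at 18 h 7.45, 3.58 and 4.71, and at 22 h 36.9, 2.53 and 10.7. So the 6 libraries of 0 and 2 h and the 8 h replicate 1 lay at 178.3 or above, and the other 10 at 36.9 or below. It was STM-high (log2 fold change 7.10, SE 0.547, adjusted p = 1.37e-24), and its test over fasting times gave an adjusted p of 0.0523, or 0.0413 with the title number as replicate block, 8.37e-5 by DESeq2, 0.133 with the 18 h pair summed and 0.959 with lane, so its call depended on the fit. Of the 19 endocrine genes tested 8 were STM-high, against 5.13% of all genes, with a median log2 fold change of -0.43 against -1.67.

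Of the 30 foregut and epithelial transcription factors 22 were STM-high and all 30 were higher than the mean of the other organs. Over all genes these shares were 5.13% and 20.6%. The median log2 fold change of the list over the highest organ was 2.81 (2.30 with the floor). Barx1, which specifies the stomach in the embryo, ran from 40.5 to 150.7, median 64.4, against at most 1.82 elsewhere. Spdef, which drives mucous cell maturation, ran from 25.1 to 76.2, median 53.8, against at most 2.29. Gata5 ran from 18.0 to 61.9, median 45.3, against at most 3.80, and Nkx6-3, a factor of antral endocrine cells, from 2.27 to 49.1, median 20.5, against at most 1.57.

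Those 4 genes had every stomach library above every other library. Among the factors that were not STM-high, Hnf4a had a median of 105.6 and Foxa3 of 69.1, and both were higher in LIV. Foxa1 had a median of 100.2 and was just under the fold threshold against LIV (log2 fold change 0.99, SE 0.391, adjusted p = 0.0168). Sox2, a factor of the foregut and of neural stem cells, had a median of 19.1, below OB. Pdx1, a factor of the antrum, duodenum and pancreas, was STM-high at 0.133 to 16.5, median 4.36.

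Of 34 forestomach squamous genes tested 31 were STM-high, with a median log2 fold change of 7.77 (4.66 with the floor), and the exceptions were Krt36, Dsc3 and Ly6d. In the next organ 21 of the 34 were at the floor, so many were tested because of their stomach counts. Lor, which encodes loricrin of the cornified layer, ran from 328.2 to 2371 normalized CPM, median 1034. The keratins Krt4 and Krt13 of suprabasal cells ran from 186.1 to 2311, median 1135, and from 236.6 to 2033, median 1181, and Krt5 of the basal layer from 21.2 to 572.8, median 239.8. Every stomach library exceeded every other library in all 4.

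Further cornified envelope genes followed the same order. Sprr3, a small proline-rich protein, had a median of 698.6 and reached 1261, against at most 1.21 elsewhere (log2 fold change 12.14, SE 0.477, adjusted p = 5.45e-24). Sprr3 and its neighbours Sprr1b and Sprr1a were at the floor in the next organ, with a median log2 fold change of 10.51 (7.77 with the floor). Krtdap, a keratinocyte differentiation protein, ran from 187.1 to 1812, median 818.3, and Rptn, repetin of the envelope, from 96.1 to 892.1, median 343.0. Trp63, the master factor of stratified epithelia, ran from 1.89 to 92.3, median 49.5, and overlapped pgWAT, where it reached 26.2. The highest level outside the stomach was in LIV 8 h replicate 3 for Lor, Krt4, Krt13, Krtdap and Rptn.

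The forestomach and gland lists varied among the 17 libraries. The forestomach sum was lowest in 8 h replicate 2, at 2656, and highest in 22 h replicate 3, at 15369, median 9273. The parietal sum was highest in 8 h replicate 2, at 19988, and lowest in 22 h replicate 3, at 3343, median 12311, and the chief cell sum was also highest in 8 h replicate 2, at 346694, with a median of 166409 and a lowest value of 81193 in 18 h replicate 2. In 22 h replicate 1 all 3 were below their medians, at 3094, 9850 and 115040. The smooth muscle sum was highest in 22 h replicate 3 as well, at 34773, with a median of 16359 and a lowest value of 11788 in 8 h replicate 1. How much of each lining and of the wall went into each library was not tested.

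**Figure D2:**
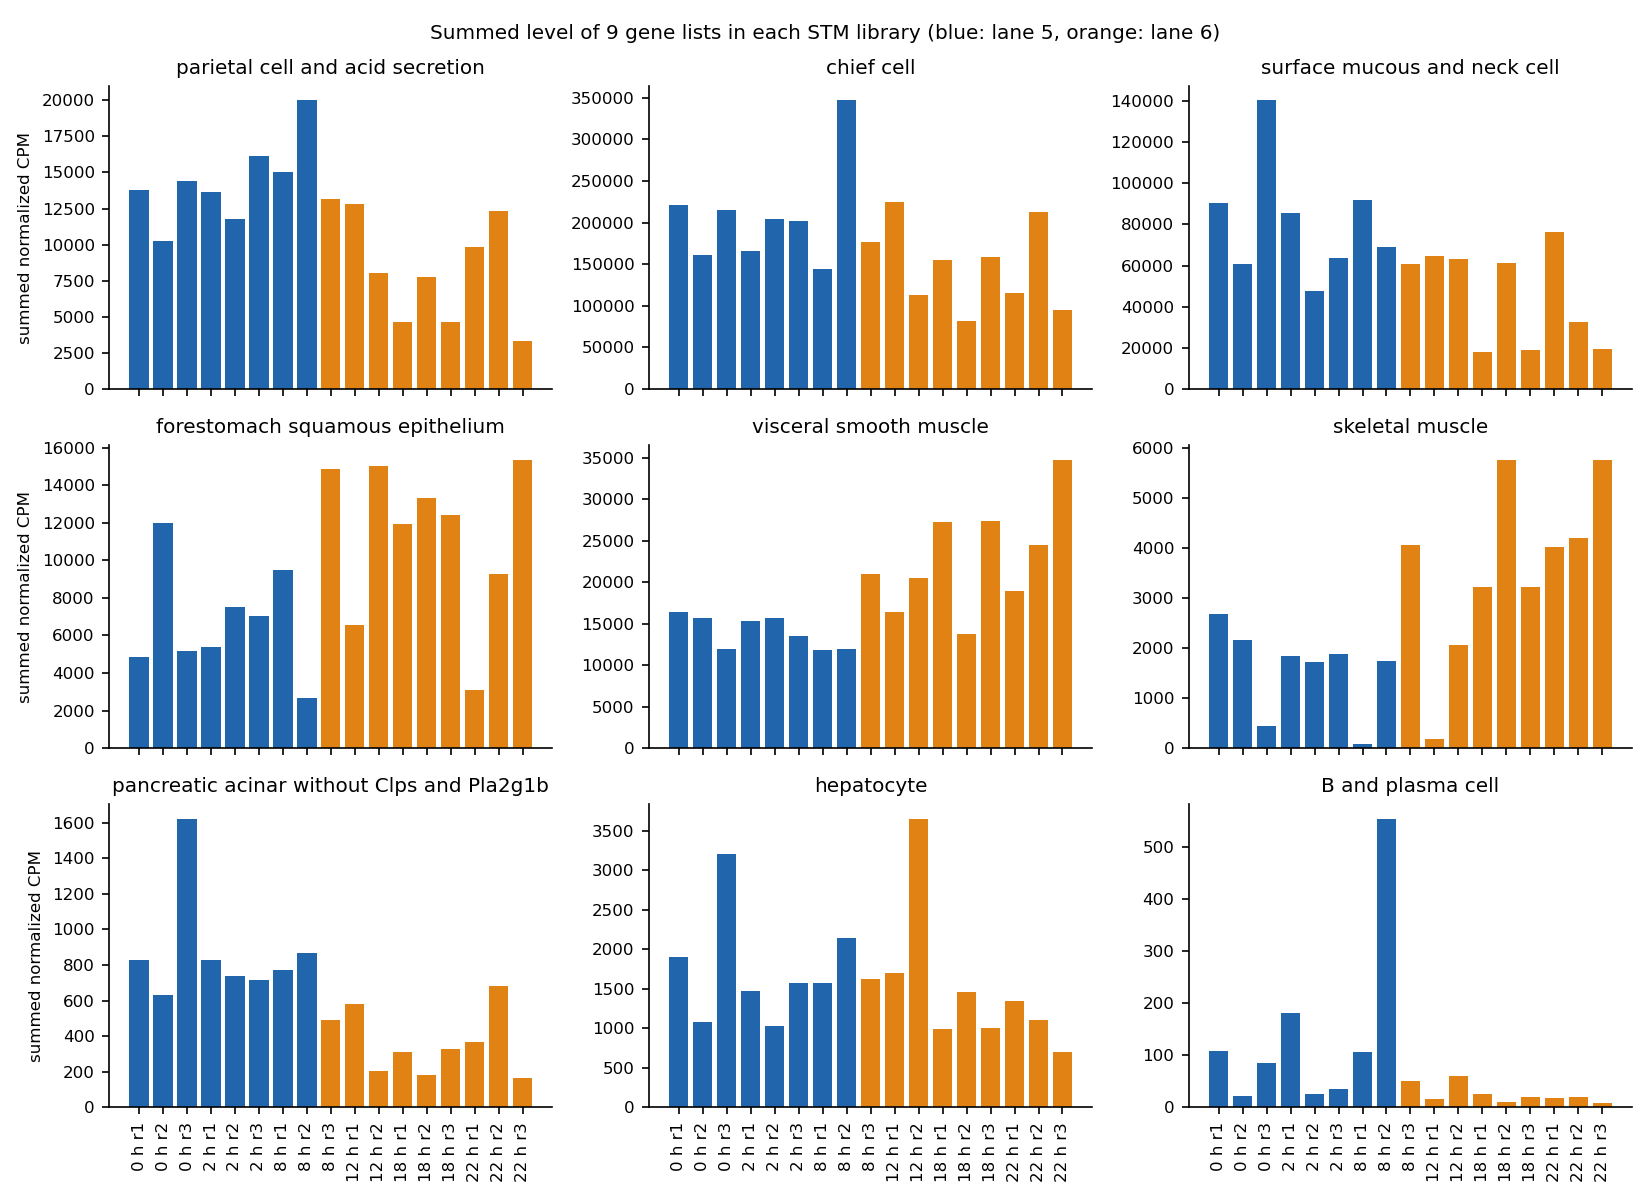
Bars give the summed normalized CPM of 9 gene lists in each of the 17 stomach libraries, ordered by fasting time and coloured by lane. The forestomach sum spans 2656 to 15369 and the parietal sum 3343 to 19988.

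Of the 28 epithelial junction and keratin genes 21 were STM-high and 27 were higher than the mean of the other organs, with a median log2 fold change over the highest organ of 2.36. Cldn18, the tight junction claudin of the gastric lining, ran from 169.5 to 895.8, median 684.9, against at most 5.58 elsewhere (log2 fold change 10.39, SE 0.376, adjusted p = 4.73e-47). Krt8 of simple epithelia ran from 616.0 to 2482, median 1482, above all other libraries. Cdh1, the adhesion molecule E-cadherin, ran from 304.5 to 793.8, median 611.2. Of the 20 mucosal defence genes 10 were STM-high, against 5.13% of all genes, with a median of 0.38 (0.34 with the floor). Among the 10 was Dmbt1, a secreted scavenger protein, at 22.1 to 299.9, median 97.8.

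The muscle wall was marked by contractile genes shared with blood vessels in other organs. Of 22 visceral smooth muscle genes 16 were STM-high, with a median log2 fold change of 2.40. Myh11, the smooth muscle myosin, ran from 910.6 to 5762, median 2557, and averaged 7.65 times pgWAT, but the pgWAT 22 h replicate 2 reached 4165, so the groups overlapped. Acta2, Tagln and Actg2, further contractile genes, had medians of 2175, 2002 and 1086. Kit and Ano1, markers of the pacemaker cells, had medians of 50.4 and 60.9 and were not STM-high.

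Of 18 enteric neuron genes 1 was STM-high (2 without the 0 h libraries), against 5.13% of all genes. That gene was Hand2, a factor needed for enteric neurons and smooth muscle, at 21.7 to 87.0, median 31.7, against at most 14.1 elsewhere. The list's median log2 fold change was -2.76. Vip and Nos1, of inhibitory neurons, had medians of 24.9 and 25.1, and were matched or exceeded by brain regions. Skeletal muscle genes were present in most stomach libraries. Acta1, the skeletal actin, had a median of 979.1 and reached 2438, but was at 4.29 in 8 h replicate 1 and 2.56 in 12 h replicate 1. Of 12 skeletal muscle genes 1, the myosin Myh1, was STM-high, against 5.13% of all genes, with a list median of -1.51. The skeletal muscle sum ran from 77.8 (8 h replicate 1) to 5773 (22 h replicate 3), median 2169.

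Markers of the intestine were mixed. Muc2, the intestinal gel mucin, had no count in any stomach library, and Cdx2, the intestinal master factor, had a median of 0 and reached 3.58 in 2 h replicate 1. Of 13 small intestine genes tested 3 were STM-high (Alpi, Sis and Slc15a1), against 5.13% of all genes. Against the mean of the other organs 12 were higher, as were 20.6% of all genes. The median log2 fold change over the highest organ was -0.61 (-1.35 with the floor). The list summed to 177.8 (22 h replicate 3) to 637.4 (2 h replicate 1), median 349.3, and Anpep, an aminopeptidase, was its most abundant gene at a median of 188.7.

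The B cell, T cell and macrophage lists were low beside the white fats. No B or plasma cell gene of 13 was STM-high, with a median log2 fold change of -6.76, and the list sum ran from 8.16 to 554.0, the highest in 8 h replicate 2, median 25.3. No T cell gene of 13 and no macrophage gene of 12 was STM-high, with medians of -8.10 and -3.10. For these 3 lists edgeR and DESeq2 both gave 0, and 0 genes were over log2 fold change 1 against all 8 organs at any p. Over all genes 5.13% were STM-high, and lists this short cannot set 0 apart from that share. Of 11 mast cell genes 4 were STM-high and 9 were higher than the mean of the other organs, against 5.13% and 20.6% of all genes. Their median over the highest organ was -1.29. Those 4 included the mucosal proteases Mcpt1, at 0.449 to 15.7, median 1.70, and Mcpt2, at 0.112 to 10.5, median 3.77. Elsewhere these reached 0.0921 and 0.102. Red blood cell genes, whose sum was highest in LIV, had a median of -4.13, and Hbb-bs and Hbb-bt of the 7 were STM-low.

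None of 15 hepatocyte, 13 adipocyte and 16 brain cell genes was STM-high by edgeR or DESeq2, against 5.13% of all genes by edgeR. Also 0 were over log2 fold change 1 against all 8 organs at any p. These lists mark the liver, fats and brain, which an STM-high gene had to exceed. Counts of 0 were therefore largely set in advance by the definition. The median log2 fold changes over the highest organ were -9.56, -8.59 and -8.24, though 11 hepatocyte, 4 adipocyte and 0 brain cell genes were higher in the stomach than the mean of the 8 organs. The hepatocyte sum in the stomach ran from 693.7 to 3655, the highest in 12 h replicate 2, median 1477, and its most abundant gene was Apoa1 at a median of 1306. The adipocyte sum ran from 351.0 to 645.9, median 433.5, and the brain cell sum from 125.8 to 268.9, median 195.8. Olig2, of the oligodendrocyte lineage, had no count in the stomach.

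STM-low genes were few and mostly weakly expressed in the stomach, with a median level of 0.239 normalized CPM against 8.18 over all genes and 29.96 for STM-high genes. Of these genes 96 were annotated as protein coding and 36 as lincRNA or antisense. Among those with at least 10 normalized CPM on average in every other organ, Paqr9, a membrane progestin receptor, was furthest down, at 0 to 6.03, median 0.507, with a log2 fold change of -4.94 against psWAT, the lowest other organ. Clstn3, a calsyntenin of synapses and fat, was at 0.674 to 3.37, median 1.96, with -3.78, and Aspa, which splits acetylaspartate in myelin-forming cells and fat, at 1.85 to 7.01, median 3.46, with -2.25 against LIV.

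S1pr1, a sphingosine phosphate receptor of blood vessels, was at 5.87 to 16.4, median 11.6, with a log2 fold change of -2.17 against LIV. Actr6, an actin-related protein of chromatin remodelling, was at 1.31 to 8.31, median 4.66, with -1.62, and Tmem184c at 2.77 to 9.65, median 6.55, with -1.52. For Actr6 and Tmem184c every stomach library was below every other library, as for 4 STM-low genes and 7 of all genes tested. N4bp2l1 and Sh3bp5 were STM-low too, at medians of 5.72 and 9.38, and each shares exon sequence with a neighbouring gene.

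Some STM-high genes were direct neighbours, and how many would be by chance was not tested. Of the 988 protein-coding STM-high genes 14.6% lay in 32 runs of 3 or more neighbours with no other protein-coding gene between them. The longest run held 26 genes, at chr3:92604718-93019060 (GRCm38), with the late cornified envelope genes Lce1, Lce3 and Lce6a, Kprp and Crct1, and a median log2 fold change of 10.24 (5.33 with the floor, which all 26 were at in the next organ). On the same chromosome lay 7 Sprr2 genes (chr3:92215799-92366442), Sprr1b, Sprr3 and Sprr1a (chr3:92436809-92485895), and Flg2, Flg, Hrnr and Rptn (chr3:93197278-93399442), all in the region known as the epidermal differentiation complex. Of the 1203 genes tested on chromosome 3, 9.73% were STM-high, against 5.13% of all genes, but Lce genes pass the filter on low counts mainly through the stomach.

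Other runs held families of enzymes and secreted proteins, most of them at the floor in the next organ. A run of 8 kallikrein (Klk) proteases, 7 of them at the floor, lay at chr7:43690418-43816359, with a median log2 fold change of 7.23 (5.10 with the floor). A run of 6 Tmprss11 membrane proteases, all at the floor, lay at chr5:86302217-86745815, with 5.43 (0.26 with the floor). Runs of 5 and 4 Serpinb protease inhibitors, 4 of each at the floor, lay at chr1:107153940-107535478 and chr1:106861173-107052303, with 7.02 and 9.40 (3.33 and 4.80 with the floor). The 3 gastrokines Gkn1, Gkn2 and Gkn3, none of them at the floor, were neighbours at chr6:87345650-87388935, and the oxidases Duox1 and Duox2 lay with their partners Duoxa1 and Duoxa2 at chr2:122279247-122347972. Members of such families can share sequence, so reads of near-identical copies such as Sprr2a1 and Sprr2a2 cannot be assigned with certainty.

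**Figure D3:**
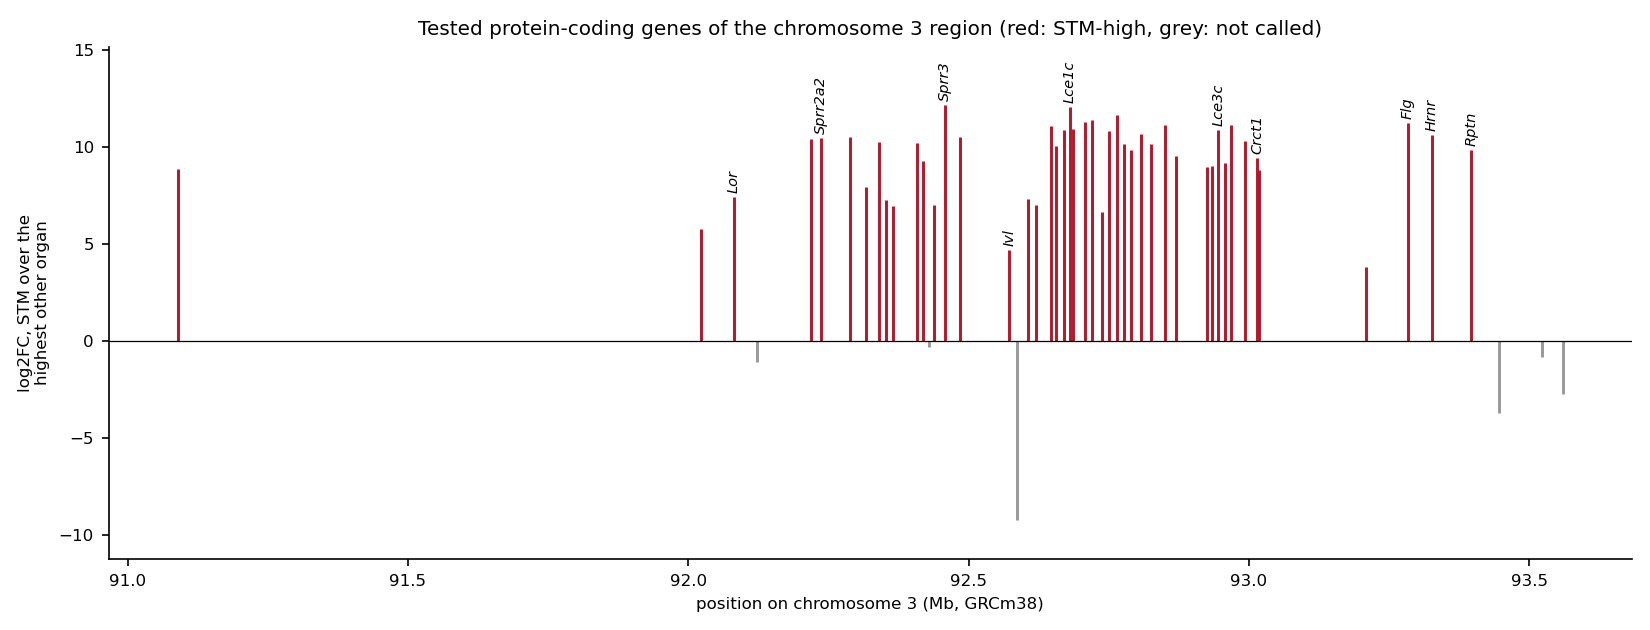
Log2 fold change of the stomach over the highest other organ for genes that code for proteins, by position (Mb, GRCm38) along the epidermal differentiation complex of chromosome 3, with STM-high genes in red. The run of 26 neighbouring STM-high genes has a median of 10.24 (5.33 with the floor).

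Promoters from RefSeq (GRCm38.p6) were matched by symbol to 14379 of the genes tested, and the forward-strand motif TATAAA, the core of the TATA box, was searched in the 50 bases before the start. It was present for 2.89% of all 24477 promoters of the table and for 416 of the 14379 genes tested (2.89%). Among STM-high genes with a promoter it was present for 75 of 752 (9.97%), and among STM-low genes for 1 of 100. By list it was present for 4 of 6 chief cell genes, 8 of 23 forestomach genes, 3 of 14 mucous and neck cell genes and 1 of 14 parietal genes. A match is a description of these letters and not a binding site.

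The windows shown run from 50 bases before the start to 50 after, 5′ to 3′ on the gene's strand, with TATAAA in capitals, and were chosen by the motif, as the 6 most abundant genes with it of the chief, mucous and forestomach lists. Gkn1, Muc6, Krt13 and Dmkn, more abundant than some of these, had no such motif. Pgc lies at chr17:47726792-47726891 (plus strand), Chia1 at chr3:106113332-106113431 (plus), Gkn2 at chr6:87373315-87373414 (plus), Lor at chr3:92083093-92083192 (minus), Sprr3 at chr3:92458671-92458770 (minus) and Krtdap at chr7:30787855-30787954 (plus). The motif began 31 bases before the start in Pgc, 43 in Chia1, 29 in Gkn2, 27 in Lor, 33 in Sprr3 and 30 in Krtdap.
Pgc: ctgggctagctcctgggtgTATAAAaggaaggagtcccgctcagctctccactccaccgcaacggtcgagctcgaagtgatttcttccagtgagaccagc
Chia1: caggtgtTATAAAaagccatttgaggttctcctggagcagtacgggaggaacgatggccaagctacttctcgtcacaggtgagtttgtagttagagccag
Gkn2: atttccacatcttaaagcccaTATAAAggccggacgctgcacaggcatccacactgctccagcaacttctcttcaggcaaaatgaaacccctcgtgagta
Lor: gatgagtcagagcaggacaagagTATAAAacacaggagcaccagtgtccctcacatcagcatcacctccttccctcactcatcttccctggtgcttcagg
Sprr3: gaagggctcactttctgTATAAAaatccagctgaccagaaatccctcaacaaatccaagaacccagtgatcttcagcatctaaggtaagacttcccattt
Krtdap: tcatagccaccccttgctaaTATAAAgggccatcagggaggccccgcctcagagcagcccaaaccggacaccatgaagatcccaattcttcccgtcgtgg

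Fasting time was tested within the stomach over 6 times, with 16281 genes. The edgeR test called 1067 genes (6.55%), of which 532 were higher and 535 lower at 22 h than at 0 h. Of the 1122 STM-high genes tested 83 were called (7.40%), 37 of them higher and 46 lower at 22 h. Leaving out 1 library at a time gave 0.629% (without 18 h replicate 3) to 12.3% (without 18 h replicate 2) of STM-high genes called. Lanes followed time, with 0 h, 2 h and 2 libraries of 8 h on lane 5 and the rest on lane 6. With lane as a covariate edgeR called 0 genes, with 845 at an unadjusted p under 0.05, and DESeq2 called 58. With the 18 h pair summed 0.768% of genes tested were called, 8 of them STM-high. Leaving out single libraries gave 0.701% without 18 h replicate 3, 0.718% without 18 h replicate 1, 2.62% without 2 h replicate 3 and 2.82% without 2 h replicate 1. It gave 3.80% without 8 h replicate 1, 3.90% without 2 h replicate 2, 4.11% without 0 h replicate 1 and 10.7% without 0 h replicate 2. Without 0 h replicates 1 and 3 and 12 h replicate 2 it was 2.72%. Fasting and lane cannot be told apart for most of these genes, and 96 genes, 7 of them STM-high, were called in all 17 fits that left out 1 library.

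In the mucous and neck cell list 5 of 20 genes tested were called (Tff2, Gkn3, Aqp5, Cftr and Agr2), all lower at 22 h than at 0 h, against 6.55% of all genes called. The list median log2 fold change was -1.19 against -0.01 over all genes. Over the same times smooth muscle genes had a median of 0.77 and enteric neuron genes of 0.87, and the smooth muscle sum was highest, at 27212, 27386 and 34773, in the 3 libraries with the lowest mucous sums (18 h replicates 1 and 3 and 22 h replicate 3). With the 18 h pair summed edgeR called 0 of the 20, with 5 at an unadjusted p under 0.05, and DESeq2 without summing called 9. Gkn3, a gastrokine of neck cells, was 883.7 ± 213.4 (SD, n = 3) at 0 h, 1229 ± 1036 at 2 h, 333.4 ± 357.3 at 8 h, 130.2 ± 149.2 at 12 h (n = 2), 61.9 ± 4.73 at 18 h and 114.1 ± 31.2 at 22 h. The lowest 0 h library, at 691.5, was above the highest 22 h library, at 140.9, and the adjusted p was 0.0338, or 0.0975 with the pair summed and 0.949 with lane. Agr2, which folds mucins, was 956.5 ± 287.1 at 0 h and 233.6 ± 110.2 at 22 h, without overlap (adjusted p = 0.0114, or 0.0532 with the pair summed and 0.922 with lane). Called genes of the lists were singled out after their values were seen.

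Endocrine genes called were Chgb, Tph1, Pcsk1 and Insm1, 4 of 15 tested and all lower at 22 h, against 6.55% of all genes. With the pair summed 3 of these were called, against 0.768% of all genes. With lane as covariate 0 endocrine genes were called, and 3 were at an unadjusted p under 0.05. Chgb, a granin of secretory granules, was 100.5 ± 1.62 at 0 h, 129.2 ± 32.4 at 2 h, 70.3 ± 25.4 at 8 h, 24.02 ± 8.39 at 12 h, 18.5 ± 3.25 at 18 h and 43.03 ± 24.3 at 22 h (adjusted p = 0.00441, or 0.0270 with the pair summed and 0.922 with lane). Tph1, which makes serotonin in endocrine cells, was 6.37 ± 2.64 at 0 h and 1.504 ± 0.403 at 22 h (adjusted p = 0.00962, and 0.0408 with the pair summed). Neither overlapped between 0 h and 22 h. Epcam, an adhesion molecule of epithelia, was 139.7 ± 13.6 at 0 h and 60.6 ± 21.9 at 22 h (adjusted p = 0.0113, or 0.0532 with the pair summed).

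Hmcn2, a matrix protein and the STM-high gene with the smallest p over times, was 72.8 ± 28.8 at 0 h, 114.9 ± 26.5 at 2 h, 73.9 ± 6.28 at 8 h, 122.1 ± 6.83 at 12 h, 269.3 ± 99.7 at 18 h and 260.5 ± 78.4 at 22 h. The highest 0 h library, at 102.3, was below the lowest 22 h library, at 170.5, and the adjusted p was 0.00418, or 0.0228 with the pair summed and 0.922 with lane. Among smooth muscle genes 2 of 22 were called, Smtn and Pcp4, both higher at 22 h, and among enteric neuron genes 5 of 16, all higher, against 6.55% of all genes. Prph, one of these and a filament of peripheral neurons, was 11.9 ± 3.43 at 0 h, 36.4 ± 9.02 at 18 h and 26.03 ± 9.27 at 22 h (adjusted p = 0.00914, or 0.0514 with the pair summed). With the pair summed edgeR called 0 genes of both lists, with 5 and 6 at an unadjusted p under 0.05, and DESeq2 without summing called 7 and 6.

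**Figure D4:**
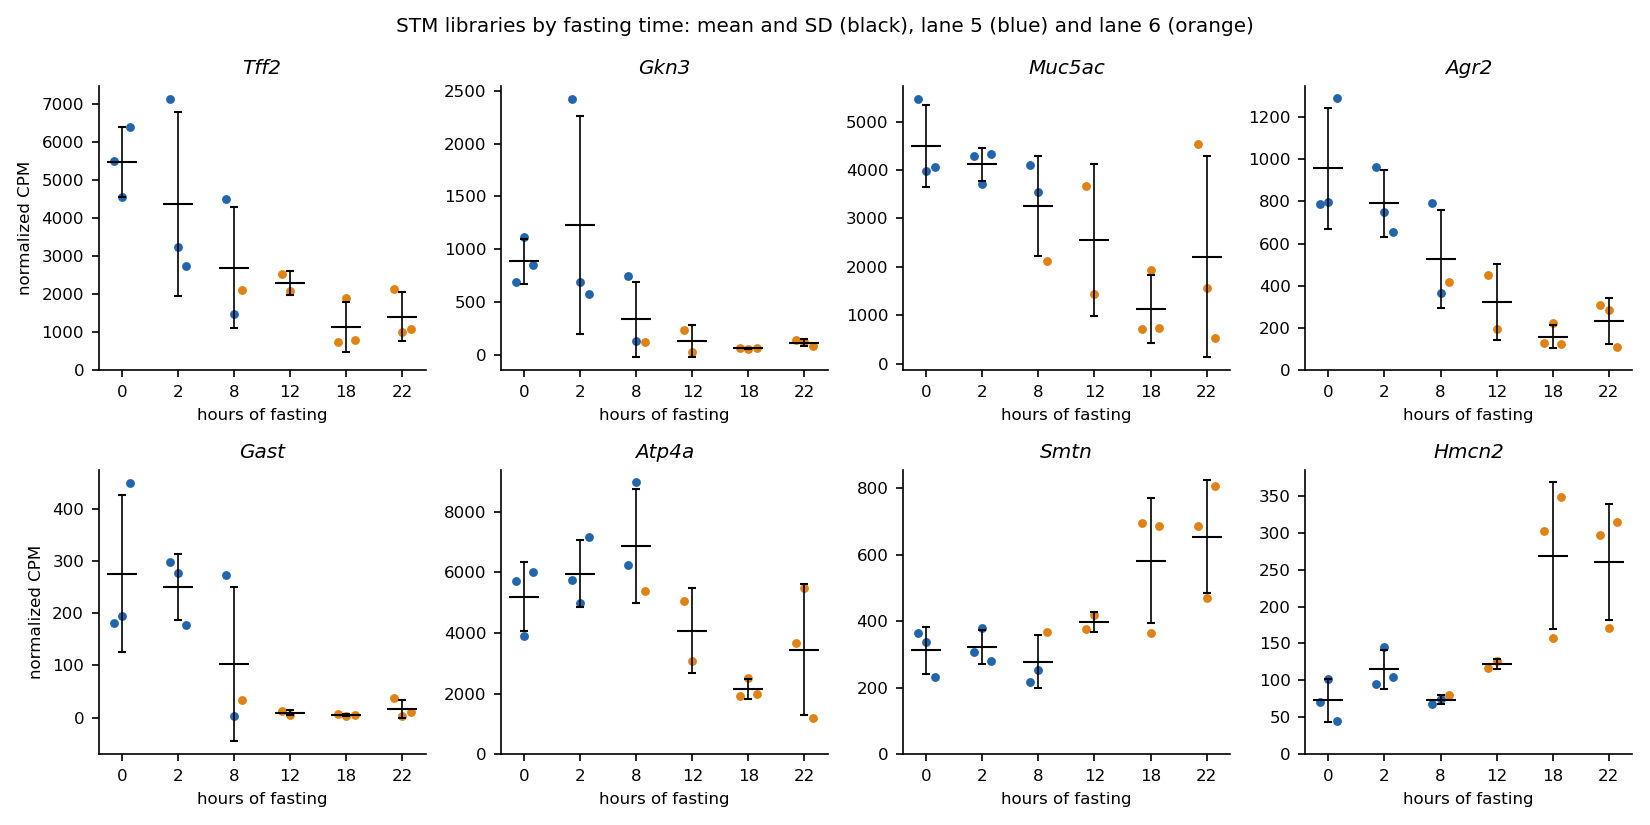
Normalized CPM in each stomach library against hours of fasting for 8 genes, with points coloured by lane and black marks for mean and SD. Gkn3 falls from a mean of 883.7 at 0 h to 114.1 at 22 h and Hmcn2 rises from 72.8 to 260.5, with lane changing along the same axis.

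Genes of acid, enzyme and squamous lists did not pass the edgeR test over times: 0 of 21 parietal, 0 of 9 chief cell and 0 of 33 forestomach genes were called. At an unadjusted p under 0.05 there were 11, 3 and 3, and DESeq2 called 11, 3 and 4. With the 18 h pair summed the counts at that unadjusted p were 5, 3 and 2, and with lane 1, 0 and 0. Pgc had an adjusted p of 0.885, Ghrl 0.589, Atp4a and Atp4b 0.140 and Muc5ac 0.246, which does not show that their levels were equal. Atp4b was 2713 ± 687.9 at 0 h and 1109 ± 293.4 at 18 h, where replicates 1 and 3 are the close pair. Its adjusted p over all times was 0.344 with the pair summed, 0.922 with lane and 0.0132 by DESeq2. The pancreatic list had 7 of 22 genes called, all lower at 22 h, against 6.55% of all genes. With the pair summed 2 of the list were called. With lane 0 were called, and 5 were at an unadjusted p under 0.05. Among the 7 was Ctrb1, at 73.9 ± 72.9 at 0 h and 0.607 ± 0.271 at 22 h, where the 0 h mean rests on replicates 1 and 3.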

How the data were processed

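The deposited table holds raw read counts per gene, which the authors made with TopHat2 2.1.1 on GRCm38.p5 and HTSeq 0.9.1 with Gencode M16, from stranded poly-A mRNA libraries. The strand setting of the counting is not stated. Of its 53686 rows, 15167 had no count, and 49670 (92.5%) matched 1 gene of Gencode M21 by symbol, which gave positions and exon lengths. There were 26 rows named as a date and 2 rows with a repeated name.

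The members, comparisons and 22 gene lists were chosen with earlier results of these data known. The libraries left out were 2 of BRN, 2 of psWAT, 1 of iBAT and 1 of STM. Genes were kept if at least 3 libraries reached a CPM of 1.143 (1.145 in the stomach fit), which is 10 counts at the median library total, and 22112 were. edgeR 4.0.16 (limma 3.58.1, R 4.3.3) fitted TMM-scaled counts by organ with the robust quasi-likelihood test, and by fasting time within the stomach. P-values were Benjamini-Hochberg adjusted over all genes tested. The steps were tested on simulated data. Tables and plots used Python 3.11.15, pandas 2.3.3, numpy 2.4.6 and matplotlib 3.10.9.

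Folds of means use a floor of 3 counts in the shallowest library of an organ where all of its libraries had 3 counts or fewer. Log2 fold changes given with an SE are fitted without this floor, so those over levels under it are not exact. The SE is the size of the log2 fold change divided by the square root of the F statistic of the edgeR test. It is therefore approximate and not a fitted error of the coefficient. It is least reliable where the other organ has few or no counts. Named genes were Atp4b and Muc5ac, the 15 STM-high genes furthest above the next organ with a stomach mean of at least 10 normalized CPM, and the 10 highest per kb. To these came the 10 lowest STM-low genes expressed in every other organ, the 4 most abundant of each list with its transcription factors, hormones, receptors and pump subunits, the 10 STM-high genes with the smallest p over fasting times, and neighbouring STM-high genes in runs of 3 or more. Other genes named were chosen after their values were seen.

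Each mouse gave all 9 organs, so the samples are paired by design. The titles do not name the mouse, so libraries with the same fasting time and title number were taken as from the same mouse. Over 132 such pairs of a stomach library with another organ, deviations from the group mean correlated across genes with a median r of 0.012 (-0.292 to 0.347). Deviations within a group of 2 or 3 libraries are tied, so these values are not independent. An alternative fitted the animal, assigned in this way, as a replicate block. Other alternatives were DESeq2 1.42.0, relative log expression (RLE) factors, no filter on low counts, no library left out, subsets by time and lane, other fold thresholds, separate fits per organ, lane or replicate as covariate, and leaving out each stomach library. A further alternative left out psWAT 8 h replicate 1, the library nearest to another organ.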

Additional observations from a re-analysis of the deposited data

How the results depend on the processing

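Leaving out each stomach library in turn gave 1126 to 1141 STM-high genes, 0.719% to 0.833% of genes STM-low, 4534 to 4589 genes higher and 3280 to 3367 lower than the mean of the other organs, and 0.701% to 10.7% of genes called over fasting times (0.701% without 18 h replicate 3, 0.718% without 18 h replicate 1, 2.62% without 2 h replicate 3, 2.82% without 2 h replicate 1, 3.80% without 8 h replicate 1, 3.90% without 2 h replicate 2, 4.11% without 0 h replicate 1 and 10.7% without 0 h replicate 2). With the animal as replicate block 1163 genes were STM-high, of which 1111 were shared with the 1134, and 163 were STM-low, with 4569 higher and 3355 lower. With the title number as replicate block 718 genes (4.41%) were called over fasting times. STM-high counts stayed between 757 (log2 fold change over 2) and 1605 (no fold threshold).

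Without a fold threshold 7984 genes were higher and 7586 lower than the mean of the other organs and 578 were STM-low. With log2 fold change over 2 these counts were 2678, 1188 and 32. Separate fits for each organ gave 69 STM-low genes, among genes that passed the filter in all of them. Over fasting times DESeq2 called 2805 genes (17.2%), and with lane as covariate edgeR called 0 (0%), with 845 at an unadjusted p under 0.05, and DESeq2 called 58 (0.356%). Some alternatives were added after the data were seen: DESeq2 with lane, leaving out 0 h replicates 1 and 3 and 12 h replicate 2, which called 2.72% over fasting times, summing 18 h replicates 1 and 3, which called 0.768%, and leaving out each library for the mean of the other organs. The cause was not tested.

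Of 363 named genes in the organ contrasts, 6284 of 6475 values kept their side of the threshold (other fold thresholds and fits that left out 1 library were not counted), 53 gained a call, 22 changed sign with a call before or after, and the rest lost a call. Signs that changed with no call on either side were not counted. The log2 fold changes of the 22 were Cela1 -0.23 with lane 6 only, Cftr -0.99 with lane 6 only, Carmn -0.0808 with lane 5 only, and with 0 h libraries only Ckm 0.0044, Col16a1 -0.0588, Cldn7 0.57, Cpa1 5.17, Ctrl 1.48 and Pnlip 3.55. With no library left out Ctrb1 was -3.11, Amy2a5 -0.14, Amy2a4 -0.54, Amy2a3 -0.88, Amy2a2 -0.11 and Sycn -0.60. With lane 6 only Ctrb1 was -3.61, Amy2a5 -0.10, Amy2a4 -0.62, Amy2a3 -0.59 and Amy2a2 -0.13. Ctrb1 was -3.36 without the 3 libraries named above and -3.69 without the 0 h libraries. The cause was not tested. Of 253 named STM-high genes 226 were called in every alternative that tested them, fits that left out 1 library included and other fold thresholds not, and of 11 named STM-low genes 10. The log2 fold change moved in genes called throughout too, for example from 11.20 to 16.19 for Clps and from 4.10 to 12.60 for Gast. Over fasting times 2937 of 3186 values of 355 named genes kept their side, 184 lost it and 65 gained it, again without the fits that left out 1 library.

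In the stomach, levels under 0.505 normalized CPM could not be told from 0 in the shallowest library. Lane follows fasting time, whole organs mix linings and wall, and the share of each in a library was not measured. White fats were extracted differently, and near-identical gene copies cannot be separated by these counts.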

Other observations

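Some STM-high genes outside the lists were singled out after their values were seen, and no count of their kind was made. Gsto1, a glutathione transferase, ran from 689.7 to 2730 normalized CPM in the stomach, median 1850, and Gsta4, which clears lipid peroxidation products, from 435.3 to 1807, median 1098. Aldh3a1, an aldehyde dehydrogenase known from cornea and stomach, ran from 266.0 to 582.7, median 437.7, against at most 8.52 elsewhere (log2 fold change 7.81, SE 0.361, adjusted p = 2.15e-46). Nqo1, a quinone reductase, had a median of 390.1, Ptgr1, a reductase of prostaglandins and aldehydes, of 911.1, and Adh7, an alcohol and retinol dehydrogenase of upper digestive epithelia, of 213.3. In all 6 every stomach library exceeded every other library. Nfe2l2, the transcription factor that drives many such enzymes, was STM-high too, at 171.7 to 496.8, median 375.0, but overlapped LIV, where it reached 227.0.

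The epidermal keratins Krt1 and Krt10 were as prominent as the forestomach keratins of the list. Krt1 ran from 152.1 to 4052, median 2156, and Krt10 from 94.6 to 4910, median 2401. By gene family, counted by the start of the symbol after values were seen, 24 of 39 keratin (Krt) genes tested, 12 of 12 Sprr, 21 of 21 Lce, 10 of 13 Klk, 10 of 17 Serpinb, 6 of 7 gasdermin (Gsdm) and 11 of 15 Tmprss genes were STM-high. Of 35 Hox genes 0 were, by edgeR or DESeq2, and 0 were over log2 fold change 1 against all 8 organs at any p. Over all genes 5.13% were STM-high, and 35 genes are too few to set 0 apart from that share. Many genes of these families pass the filter on low counts mainly through the stomach, so their counts are no support. Myh8, the perinatal skeletal myosin, ran from 0.953 to 903.4, median 328.8, and was STM-high (log2 fold change 4.70, SE 0.448, adjusted p = 4.57e-19). Slc5a5, the iodide transporter of thyroid and stomach, ran from 100.5 to 444.8, median 228.1, above every other library.

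The stomach library left out, 12 h replicate 3, held 1472 CPM of Atp4b, against 589.0 to 3334 in the 17 others without scaling, and 1076 of Muc5ac, against 521.2 to 4292. Its Pgc, at 60956, Clps, at 9149, Ghrl, at 544.2, and Krt13, at 130.3, were below the lowest of the 17, which were 70388, 19160, 577.4 and 187.2. Its Myh11, at 1826, lay inside the range of 692.4 to 5667.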
